A study of Mus musculus with 12 samples.

Results

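The mitochondrial DNA of the mouse carries 37 annotated genes: 13 that code for subunits of the respiratory chain and of ATP synthase, 2 for ribosomal RNAs and 22 for transfer RNAs. All 37 were found, by a symbol that starts with mt-, among 53465 genes counted in 12 RNA-seq libraries of mouse forelimb buds. Each library came from 1 pair of buds of the Swiss albino strain, and 3 libraries stand for each of 4 groups. Tbx3_del buds are homozygous for the Tbx3ΔVenus allele, in which a Venus reporter with a stop to transcription sits at the start codon of Tbx3. They and their Tbx3_WT buds were at E9.75 to E10 (28 to 31 somites). Hand2_del buds are Prrx1-Cre;Hand2Δ/Δc, so that Hand2 is lost in full only where the limb mesenchyme driver Prrx1-Cre acts. By this notation, Hand2_del buds also carry the Δ allele in their other cells. Their Hand2_WT buds are Prrx1-Cre;Hand2+/+, so both groups carry the Cre, and both were at E10 to E10.25 (31 to 33 somites). The labels do not say whether libraries of a group came from separate litters, so p-values measure the spread between these libraries.

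As background, mitochondrial genes are transcribed from both strands of a small circular genome as long precursors, which are cut at the tRNAs that punctuate them into mRNAs, rRNAs and tRNAs. The coded proteins are subunits of complex I (Nd genes), complex III (Cytb), complex IV (Co genes) and ATP synthase (Atp genes). All other subunits of these complexes are coded by nuclear genes. TBX3 and HAND2 are nuclear transcription factors of the early limb bud that act in its patterning.

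Total counts were 24.2, 31.8 and 27.4 M (units of 1e6) in Tbx3_del, 23.5, 23.3 and 25.8 M in Tbx3_WT, 60.2, 64.1 and 65.7 M in Hand2_del and 64.4, 68.6 and 67.2 M in Hand2_WT. Hand2 had 0.187, 2.21 and 0.384 CPM (counts scaled to 1e6 per library) in Hand2_del buds, against 119.6, 120.3 and 125.7 CPM in Hand2_WT buds (log2 fold change -7.01 ± 0.55 SE, edgeR adjusted p = 0.00164). Tbx3 counts did not check the Tbx3_del labels, with 80.6, 79.3 and 73.3 CPM in Tbx3_del and 78.0, 77.3 and 79.3 CPM in Tbx3_WT buds. By Xist and Y-linked genes, Tbx3_del replicates 1 and 2 were male and replicate 3 female, while all 3 Tbx3_WT embryos were female. In the Hand2 series, Hand2_del replicates 1 and 3 and Hand2_WT replicate 3 were male. Hand2_del replicate 1 stood apart, with 5.37% of its counts on the nuclear rRNA row CT010467.1, against 0.250% to 0.581% in the other 5 libraries of its series.

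Reads of 85 bases cannot always be placed on 1 of 2 copies of a sequence, and the mitochondrial genome has such copies in the nucleus. On chromosome 1, 7 annotated genes within chr1:24611535-24616197 (GRCm38, 4663 bases) match the stretch of mitochondrial DNA that runs from the end of mt-Co1 to the middle of mt-Nd4. Over their aligned bases, 6 of these 7 were identical to the mitochondrial gene. The seventh, Gm29216, carried 1 substitution, A1066T, counted from the first base of mt-Co1. The aligned bases of Gm28438, the copy of mt-Nd3, start at position 4 of mt-Nd3 and leave out the difference shown next. The start of mt-Nd3 (mitochondrial DNA, positions 9459 to 9543, plus strand) and of its copy Gm28438 (chr1:24613035-24613119, minus strand) is shown because this pair carries the result of the Hand2 comparison. The capital marks the base that differs, T3C from the first base of each gene, and the sequences are those of GENCODE M21 transcripts.
mt-Nd3: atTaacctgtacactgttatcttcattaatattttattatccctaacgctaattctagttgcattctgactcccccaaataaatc
Gm28438: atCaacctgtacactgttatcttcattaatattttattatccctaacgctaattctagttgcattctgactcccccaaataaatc

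From position 4 to 345 of mt-Nd3, which has 348 bases, both sequences were the same. Of the 264 words of 85 bases in mt-Nd3, 258 also occur in Gm28438, and a read of 1 of these words carries no base that tells one gene from the other. For mt-Co2, mt-Atp6, mt-Co3, mt-Nd3 and mt-Nd4l, between 97.7% and 99.9% of all 85-base words of the gene also occur in its chromosome 1 copy. For mt-Nd4 the share was 61.2%, but its copy Gm28439 was listed at 0 in all libraries. For mt-Co1 it was 27.0%, for mt-Nd2 4.72% and for mt-Nd5 0.632%, while mt-Nd1, mt-Nd6, mt-Cytb, mt-Atp8 and both rRNA genes shared no such word with any annotated nuclear gene. Values are therefore given for the mitochondrial row alone and, where a copy exists, for the sum of the row and its nuclear copies.

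The tRNA genes gave no values. All 22 were listed at 0 in all 12 libraries, and all are shorter than a read, from 59 to 75 bases. The shortest, mt-Ts2 (positions 11613 to 11671, a serine tRNA), and the longest, mt-Tl1 (positions 2676 to 2750, a leucine tRNA), are shown against the 85-base reads.
mt-Ts2: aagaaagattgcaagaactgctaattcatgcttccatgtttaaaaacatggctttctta
mt-Tl1: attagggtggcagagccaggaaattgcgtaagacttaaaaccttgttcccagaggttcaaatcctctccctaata

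A count of 0 is therefore no measure of tRNA levels. The 13 coding genes and both rRNA genes, 15 of the 37 members, passed the filter on low counts in both comparisons.

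The mitochondrial genes took 0.937%, 0.776% and 0.825% of all counts in Tbx3_del buds, against 1.06%, 1.01% and 1.35% in Tbx3_WT buds. Every Tbx3_del library lay below every Tbx3_WT library, and the means were 0.846 ± 0.0827% and 1.14 ± 0.179% (SD, n = 3 each). The difference of -0.295 percentage points became -0.192 without Tbx3_WT replicate 3, the library with the highest share. The order of the groups was the same with the 13 coding genes only and with the nuclear copies added. The 1 female Tbx3_del library, replicate 3, also lay below the 3 female Tbx3_WT libraries. With 1 such library and no male Tbx3_WT library, sex and genotype cannot be told apart. In bulk buds, a difference in mitochondrial transcripts per cell and one in the number of cells rich in mitochondria cannot be told apart.

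In the Hand2 series the share was 1.327%, 1.320% and 1.560% in Hand2_del buds, against 1.295%, 1.302% and 1.274% in Hand2_WT buds. The means were 1.40 ± 0.137% and 1.29 ± 0.0145% (SD, n = 3 each), a difference of 0.112 points. The groups did not overlap, but their separation depended on what was summed and on the total it was divided by. With the 13 coding genes only, Hand2_del had 1.23%, 1.29% and 1.52%, against 1.26%, 1.27% and 1.25% in Hand2_WT, and the groups overlapped. Of protein-coding counts only, the same 13 genes took 1.333%, 1.331% and 1.562% in Hand2_del. In Hand2_WT they took 1.303%, 1.310% and 1.284%, with no overlap. With the nuclear copies added to the 37 genes, the groups overlapped. The difference was 0.0328 points without Hand2_del replicate 3, the library with the highest share.

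**Figure D1:**
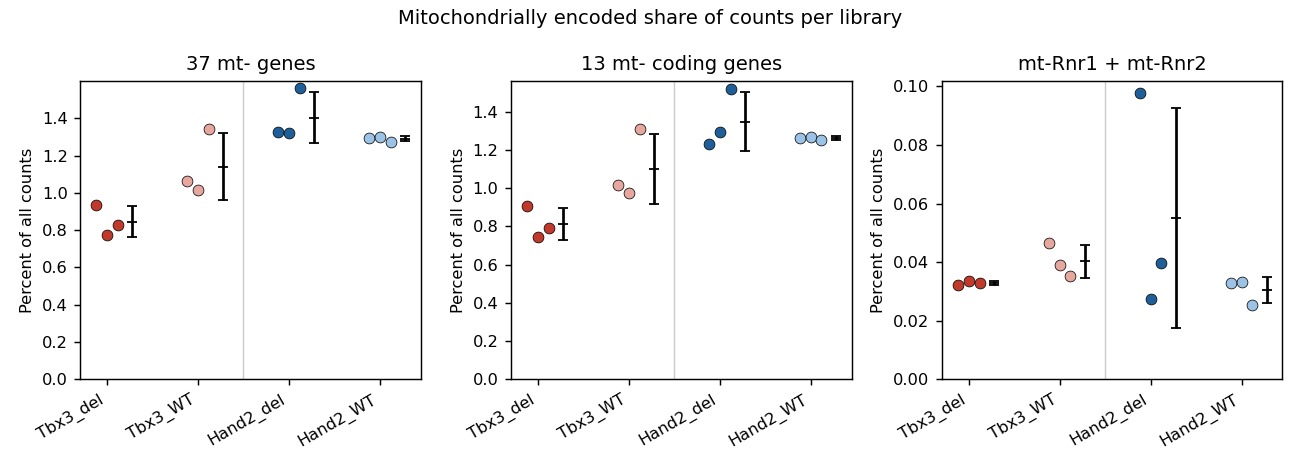
Percent of all counts in each library for the 37 mt- genes, the 13 coding genes and the 2 rRNA genes (y axes), by group (x axes). Points are libraries and the bars at their right are mean ± SD of 3. The Tbx3_del libraries (0.776% to 0.937%) sit below the Tbx3_WT libraries (1.01% to 1.35%), and in the right panel Hand2_del replicate 1 stands far above all others.

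In Tbx3_del buds against Tbx3_WT buds, all 13 coding genes had a lower mean, with a median log2 fold change of -0.41 where the median of all 15130 genes tested was -0.003. None of the 13 passed the test (edgeR quasi-likelihood, adjusted p 0.0743 to 0.809), and 7 of them had an unadjusted p under 0.05, as did 14.3% of all genes tested. For 7 of the 13 every Tbx3_del library lay below every Tbx3_WT library, an arrangement that 9.95% of all genes tested showed. With the copies added, 11 of the 13 were so arranged, against 9.96% of all genes in that fit. DESeq2 called 4 of the 13 as lower, mt-Nd1, mt-Nd2, mt-Atp8 and mt-Cytb, where it called 1.22% of all genes as lower. The 1 member called was an rRNA gene, mt-Rnr2, among 15 members tested. Over all genes, edgeR called 1.01%.

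Among complex I subunits, mt-Nd1, a membrane subunit next to the ubiquinone site, had 1107, 822 and 866 CPM in Tbx3_del buds, against 1499, 1256 and 1487 CPM in Tbx3_WT buds. The groups did not overlap, the log2 fold change was -0.60 ± 0.12 SE and the adjusted p was 0.0743. Without Tbx3_del replicate 1, the highest of the mutant libraries, mt-Nd1 was called (adjusted p = 0.0133), and without any 1 of the other 5 libraries it was not (0.109 to 0.216). Over all settings tried, its adjusted p (edgeR, DESeq2 or limma-voom) ran from 2.78e-06 by DESeq2 to 0.314 with embryo sex in the model. The neighbouring coding gene mt-Nd2, another membrane subunit, had 639, 588 and 608 CPM in Tbx3_del and 756, 673 and 832 CPM in Tbx3_WT buds, with a log2 fold change of -0.30. The ratio of mt-Nd1 to mt-Nd2 was 1.73, 1.40 and 1.42 in Tbx3_del buds and 1.98, 1.87 and 1.79 in Tbx3_WT buds, with no overlap between the groups.

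The proton-pumping subunits mt-Nd4 and mt-Nd5 also stayed apart between the groups. mt-Nd4 had 764, 622 and 624 CPM in Tbx3_del and 842, 835 and 1140 CPM in Tbx3_WT buds (log2 fold change -0.49, adjusted p = 0.161 by edgeR). mt-Nd5 had 764, 686 and 701 CPM in Tbx3_del and 791, 839 and 1186 CPM in Tbx3_WT buds (-0.39, adjusted p = 0.272). In both genes Tbx3_WT replicate 3 was far above its fellows, while the lowest Tbx3_WT and the highest Tbx3_del library were close.

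mt-Nd6 is the 1 coding gene on the other strand and ends inside mt-Nd5, with 14 shared bases. It had 200.5, 190.8 and 181.1 CPM in Tbx3_del and 188.6, 212.0 and 296.9 CPM in Tbx3_WT buds (log2 fold change -0.29), and the groups overlapped. The ratio of mt-Nd6 to mt-Nd5 was 0.262, 0.278 and 0.258 in Tbx3_del and 0.238, 0.253 and 0.250 in Tbx3_WT buds, a small gap with no overlap. The strand of the libraries is not given in the sources used here, so reads of mt-Nd6 and of RNA from the opposite strand cannot be told apart.

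mt-Cytb, the catalytic subunit of complex III, had 885, 789 and 798 CPM in Tbx3_del buds, against 967, 1047 and 1386 CPM in Tbx3_WT buds (log2 fold change -0.46 ± 0.13 SE, adjusted p = 0.158 by edgeR). The groups did not overlap. mt-Co1, the catalytic subunit of complex IV, had 2619, 2022 and 2046 CPM in Tbx3_del and 2727, 2703 and 3652 CPM in Tbx3_WT buds (-0.44, adjusted p = 0.212). Here too every mutant library was the lower one, by little between Tbx3_del replicate 1 and Tbx3_WT replicate 2.

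mt-Atp8, a small subunit of ATP synthase, had 242, 193 and 218 CPM in Tbx3_del and 285, 248 and 306 CPM in Tbx3_WT buds (log2 fold change -0.36). Its last 43 bases are also the first of mt-Atp6, the proton-channel subunit, and both are made from 1 mRNA. The last 80 bases of mt-Atp8 (positions 7890 to 7969) are shown because the bases in capitals (positions 7927 to 7969) belong to both genes. The overlap is shorter than a read.
mt-Atp8: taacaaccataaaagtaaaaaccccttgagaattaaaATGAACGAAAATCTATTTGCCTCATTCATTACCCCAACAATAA

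The ratio of mt-Atp8 to mt-Atp6 with its copies was 0.178, 0.170 and 0.178 in Tbx3_del, 0.171, 0.161 and 0.164 in Tbx3_WT, 0.180, 0.179 and 0.181 in Hand2_del and 0.178, 0.185 and 0.175 in Hand2_WT buds. These genes of 1 mRNA thus kept nearly the same ratio in all 12 libraries once the copy was counted in.

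The rows of the copied genes scattered widely between libraries of 1 group in the Tbx3 series. mt-Atp6 had 381, 235 and 1089 CPM in Tbx3_del and 1100, 563 and 517 CPM in Tbx3_WT buds. Its copy Gm10925 had 977, 900 and 138 CPM in Tbx3_del and 564, 979 and 1353 CPM in Tbx3_WT buds. Within Tbx3_del, replicate 3 had the most counts on the mt-Atp6 row and the fewest on the copy, and so did replicate 1 within Tbx3_WT.

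Summed, mt-Atp6 and its copy had 1358, 1135 and 1228 CPM in Tbx3_del and 1664, 1542 and 1870 CPM in Tbx3_WT buds. The groups no longer overlapped, the log2 fold change was -0.45 ± 0.087 SE and the edgeR adjusted p was 0.0688. The coefficient of variation within Tbx3_del was 9.05% for the sum and 80.4% for the mt-Atp6 row. Across mt-Co2, mt-Atp6, mt-Co3, mt-Nd3 and mt-Nd4l it was 2.61% to 20.3% for the sums and 19.2% to 81.4% for the rows in the Tbx3 series. In the Hand2 series it was 1.37% to 12.9% for the sums and 6.11% to 29.8% for the rows.

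**Figure D2:**
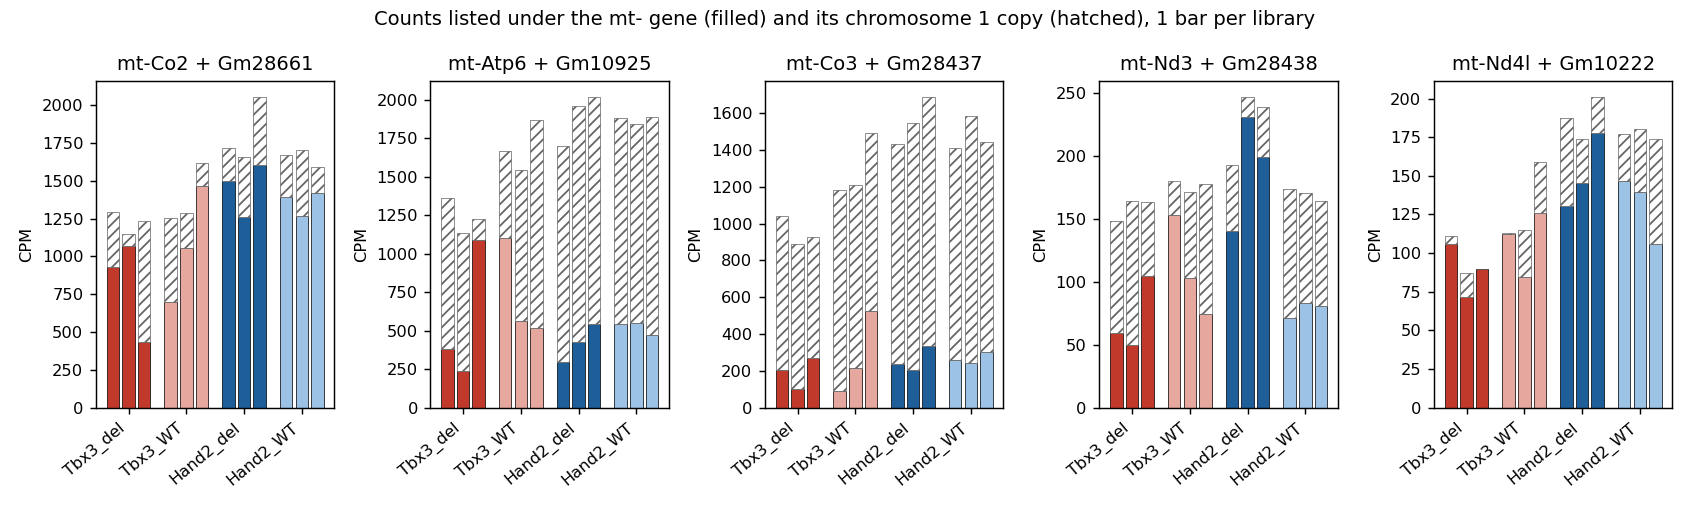
CPM (y axes) of 5 copied mitochondrial genes, 1 stacked bar per library by group (x axes), with the mt- row filled and its chromosome 1 copy hatched. Bar heights vary less within a group than the filled parts do: mt-Atp6 ranged from 235 to 1089 CPM in Tbx3_del as a row and from 1135 to 1358 CPM with its copy.

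mt-Co3, a core subunit of complex IV, had 203, 101 and 271 CPM in Tbx3_del and 88.6, 213.9 and 524.1 CPM in Tbx3_WT buds as a row. With Gm28437 it had 1042, 889 and 927 CPM in Tbx3_del and 1184, 1211 and 1494 CPM in Tbx3_WT buds (log2 fold change -0.44, adjusted p = 0.0985 by edgeR). Most counts of this pair stood on the nuclear row: the mitochondrial row held 7.48% to 35.1% of them in the 6 libraries.

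mt-Co2, the subunit that takes electrons from cytochrome c, differed least of the complex IV subunits. With Gm28661 it had 1291, 1145 and 1237 CPM in Tbx3_del and 1253, 1287 and 1618 CPM in Tbx3_WT buds (log2 fold change -0.18), and the groups overlapped. The mitochondrial row held 72.0%, 93.3% and 35.2% of this sum in Tbx3_del and 55.7%, 82.1% and 90.8% in Tbx3_WT buds.

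mt-Nd4l, a small complex I subunit, had 111, 87.2 and 90.0 CPM in Tbx3_del and 113, 115 and 159 CPM in Tbx3_WT buds with Gm10222 (log2 fold change -0.42). mt-Nd3, a complex I subunit at the junction of its membrane and matrix arms, had 148, 164 and 163 CPM in Tbx3_del and 180, 171 and 178 CPM in Tbx3_WT buds with Gm28438 (-0.15 ± 0.056 SE, adjusted p = 0.262 by edgeR). As a row mt-Nd3 had 59.2, 49.4 and 104.7 CPM in Tbx3_del and 153.1, 103.0 and 74.6 CPM in Tbx3_WT buds, with a log2 fold change of -0.63. The sum thus showed a far smaller difference than the row, and the groups of the sum did not overlap.

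The 2 rRNA genes of the mitochondrial ribosome differed in opposite directions in the Tbx3 series, and 1 of them passed the test. mt-Rnr2 (the 16S rRNA of the large subunit, positions 1094 to 2675 of the mitochondrial DNA) had 157, 140 and 151 CPM in Tbx3_del buds, against 290, 258 and 217 CPM in Tbx3_WT buds. It fell to 149 ± 8.93 CPM in Tbx3_del, against 255 ± 36.2 CPM in Tbx3_WT (SD, n = 3 each). Its log2 fold change was -0.77 ± 0.10 SE, at an edgeR adjusted p of 0.0231, in a comparison in which 0.284% of all genes fell. mt-Rnr1 (the 12S rRNA of the small subunit, positions 70 to 1024) had 160.5, 197.5 and 182.5 CPM in Tbx3_del, against 176.3, 136.3 and 133.9 CPM in Tbx3_WT buds. Its groups overlapped, and its log2 fold change of 0.28 did not pass the test (adjusted p = 0.350).

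The ratio of mt-Rnr2 to mt-Rnr1 was 0.979, 0.707 and 0.827 in Tbx3_del buds, against 1.64, 1.89 and 1.62 in Tbx3_WT buds. In Hand2_del buds it was 1.63, 1.58 and 1.43, and in Hand2_WT buds 1.61, 1.46 and 1.28. The 3 Tbx3_del libraries thus stood below all 9 others. Between both genes lies the tRNA gene mt-Tv (positions 1025 to 1093), and neither rRNA gene shares an 85-base word with an annotated nuclear gene.

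The call of mt-Rnr2 rested on few libraries. Its adjusted p was 0.0930 without Tbx3_WT replicate 2, 0.0989 without Tbx3_del replicate 2 and 0.0748 without Tbx3_del replicate 3, with log2 fold changes between -0.87 and -0.67 over all 6 omissions. With embryo sex in the model the log2 fold change was -0.76 and the adjusted p 0.238. The 1 female Tbx3_del library had 151 CPM, against 217 to 290 CPM in the 3 female Tbx3_WT libraries, and no test was run within a sex.

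**Figure D3:**
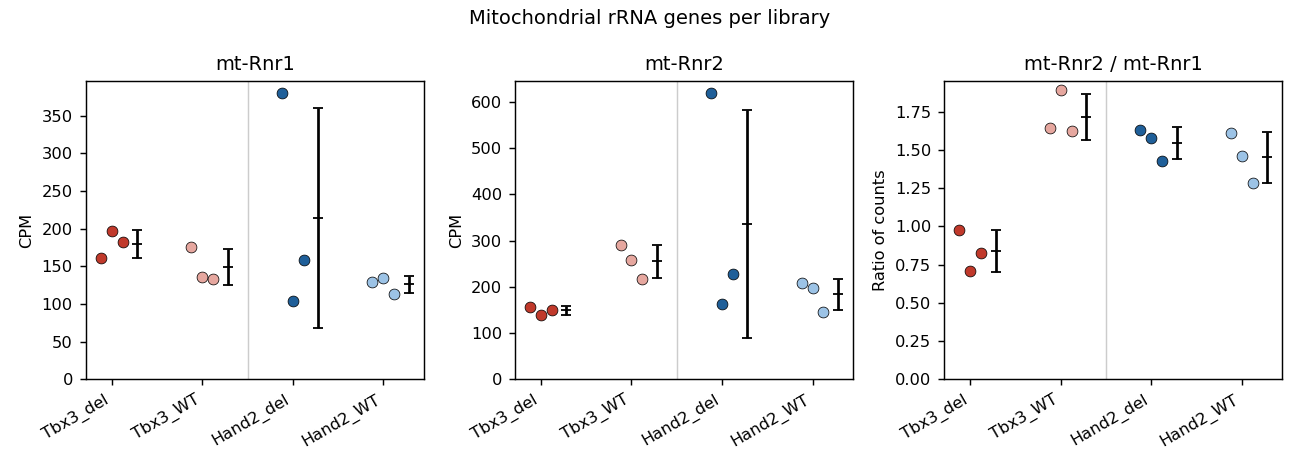
CPM of mt-Rnr1 and mt-Rnr2 and the ratio of their counts (y axes) by group (x axes). Points are libraries, bars at their right mean ± SD of 3. The ratio lies between 0.707 and 0.979 in Tbx3_del and between 1.28 and 1.89 in the other 3 groups, and Hand2_del replicate 1 has the highest CPM of both genes.

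In Hand2_del buds against Hand2_WT buds, the coding genes differed little, with 1 exception. Of the 13, 11 had a higher mean, and the median log2 fold change was 0.07, against 0.01 over all 17488 genes tested. Of 15 members tested mt-Nd3 was the 1 called, in a comparison in which 10.5% of all genes were called. It was also the 1 coding gene whose groups did not overlap, while 18.7% of all genes tested had every Hand2_del library above every Hand2_WT library.

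The mt-Nd3 row had 140, 231 and 199 CPM in Hand2_del buds, against 71.5, 82.7 and 80.9 CPM in Hand2_WT buds. It rose by 1.28 ± 0.17 SE on the log2 scale (edgeR adjusted p = 0.0108), as did 4.68% of all genes. The adjusted p was 0.0529 without Hand2_WT replicate 3. By sex, the female Hand2_del library had 231 CPM, against 71.5 and 82.7 CPM in female Hand2_WT libraries, and the males 140 and 199 CPM, against 80.9 CPM. Each sex had few libraries per group, and no test was run within a sex. Its nuclear copy Gm28438 lay the other way, with 52.6, 16.3 and 39.7 CPM in Hand2_del and 102, 88.0 and 83.1 CPM in Hand2_WT buds (log2 fold change -1.33, adjusted p = 0.0610).

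The mitochondrial row held 72.7%, 93.4% and 83.4% of the pair's counts in Hand2_del buds, against 41.2%, 48.5% and 49.3% in Hand2_WT buds. The pair differed less than its row. The sum had 193, 247 and 239 CPM in Hand2_del buds, against 174, 171 and 164 CPM in Hand2_WT buds, and it rose by 0.42 ± 0.092 SE on the log2 scale (adjusted p = 0.0387 by edgeR). In that fit 10.6% of all genes were called, 4.70% as higher. That call was lost when any 1 library other than Hand2_del replicate 1 was left out, with adjusted p between 0.0604 and 0.134. Whether the difference in the split of reads between both rows belongs to the RNA or to the counting was not tested.

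The other complex I genes were close in both groups. mt-Nd1 averaged 1444 ± 158 CPM in Hand2_del and 1424 ± 31.9 CPM in Hand2_WT buds, mt-Nd2 819 ± 89.2 and 803 ± 8.91 CPM, and mt-Nd4 1249 ± 107 and 1227 ± 7.71 CPM (SD, n = 3 each). mt-Nd5 averaged 1167 ± 131 CPM in Hand2_del and 1088 ± 13.6 CPM in Hand2_WT buds, and mt-Nd6 282 ± 34.8 and 266 ± 6.63 CPM. In each of these 5 genes Hand2_del replicate 3 was the highest library, and the spread within Hand2_del was wider than within Hand2_WT.

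In complex III, mt-Cytb had 1490, 1525 and 1711 CPM in Hand2_del and 1517, 1476 and 1507 CPM in Hand2_WT buds (log2 fold change 0.07). In complex IV, mt-Co1 had 3877, 3691 and 4288 CPM in Hand2_del and 3803, 3765 and 3693 CPM in Hand2_WT buds (0.07). mt-Co2 with its copy had 1718, 1658 and 2058 CPM in Hand2_del and 1672, 1703 and 1594 CPM in Hand2_WT buds (0.13). The groups overlapped in all 3 genes.

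For mt-Co3 the sum was 1433, 1547 and 1690 CPM in Hand2_del and 1410, 1587 and 1444 CPM in Hand2_WT buds (log2 fold change 0.07). For mt-Atp6 it was 1697, 1955 and 2019 CPM in Hand2_del and 1879, 1839 and 1887 CPM in Hand2_WT buds (0.02). The rows of these 2 genes alone gave -0.05 and -0.30, so their direction depended on whether the copy was counted in. mt-Atp8 had a log2 fold change of 0.02 and mt-Nd4l, with its copy, of 0.09.

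**Figure D4:**
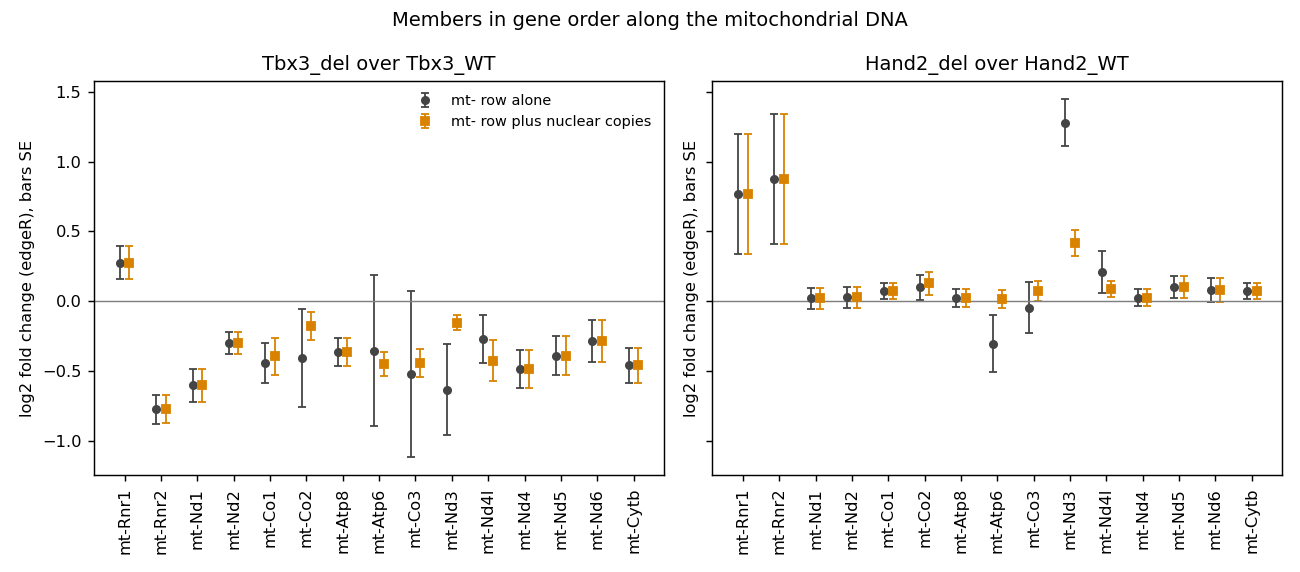
log2 fold change (y axes, bars SE) of the 15 measured mitochondrial genes in their order along the mitochondrial DNA (x axes), Tbx3_del over Tbx3_WT at the left and Hand2_del over Hand2_WT at the right. Circles are the mt- row alone and squares the sum with nuclear copies. All coding genes lie below 0 in the Tbx3 series (-0.63 to -0.27 as rows), and mt-Nd3 stands out in the Hand2 series at 1.28 as a row and 0.42 as a sum.

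The rRNA genes of the Hand2 series followed 1 library. mt-Rnr1 had 380, 104 and 159 CPM in Hand2_del and 130, 135 and 113 CPM in Hand2_WT buds (log2 fold change 0.77, adjusted p = 0.257 by edgeR). mt-Rnr2 had 619, 164 and 227 CPM in Hand2_del and 208, 197 and 146 CPM in Hand2_WT buds (0.87, adjusted p = 0.237), and 0.09 without Hand2_del replicate 1. That replicate is the library rich in counts of CT010467.1, and both rRNA genes made up 7.37% of its mitochondrial counts, against 2.00% to 2.55% in the other 5 libraries of the series. The part of this in the result was not tested.

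The difference between both effects was tested across all 12 libraries, as the Hand2 effect minus the Tbx3 effect. It was positive for all 15 members, from 0.05 for mt-Atp6 to 1.91 for mt-Nd3 as rows, and from 0.31 for mt-Co2 to 1.65 for mt-Rnr2 with copies. mt-Nd3 was called, at 1.91 ± 0.42 SE as a row (edgeR adjusted p = 0.0482) and at 0.57 ± 0.11 SE with its copy (adjusted p = 0.0340). The other 14 were not, while 1.68% of all genes were called. An unadjusted p under 0.05 was found for 8 of the 14 as rows, where 17.4% of all genes had one, and for 12 of the 14 with copies, where 17.5% did. The row's call was lost on leaving out any 1 of 9 of the 12 libraries, all except Tbx3_WT replicate 3 and Tbx3_del replicates 1 and 3. Stage, depth and the kind of loss differ together between both series, so what lies behind a difference of effects cannot be told apart.

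Per kilobase of gene and with copies added, the highest member stood 13.3 to 30.1 times above the lowest in 11 of the 12 libraries, and 6.63 times in Hand2_del replicate 1. mt-Atp6 averaged 1820 ± 165 CPM per kb in Tbx3_del, 2480 ± 243 in Tbx3_WT, 2780 ± 250 in Hand2_del and 2740 ± 37.6 in Hand2_WT buds. mt-Co1 and mt-Co2 were near it, at 1560 ± 225 and 1790 ± 108 CPM per kb in Tbx3_del and 2050 ± 341 and 2030 ± 295 in Tbx3_WT buds. Complex I genes ran from 324 CPM per kb for mt-Nd4l to 974 CPM per kb for mt-Nd1 in Tbx3_del buds. The same genes had 434 and 1480 CPM per kb in Tbx3_WT buds. The scale divides by full gene length, but an 85-base read has fewer places: mt-Nd4l, of 297 bases, has 213 words of 85 bases. Short genes are thus set lower against long ones on this scale.

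mt-Nd6, on its own strand, had 368 ± 18.7 CPM per kb in Tbx3_del, 448 ± 110 in Tbx3_WT, 543 ± 67.0 in Hand2_del and 513 ± 12.8 in Hand2_WT buds. mt-Nd5 had 393 ± 22.8 CPM per kb in Tbx3_del, 515 ± 118 in Tbx3_WT, 640 ± 72.0 in Hand2_del and 597 ± 7.44 in Hand2_WT buds (SD, n = 3 each). mt-Nd6 lay below mt-Nd5 in all 12 libraries on this scale of full gene length. The gap between their means was wider than either SD in Tbx3_del, Hand2_del and Hand2_WT, and narrower in Tbx3_WT. mt-Nd6, of 519 bases, has 435 words of 85 bases, and mt-Nd5, of 1824 bases, has 1740. The scale does not correct for this, so the order is no measure of which RNA was more abundant. In group means both rRNA genes stood lowest on this scale, with mt-Rnr2 at 94.3 ± 5.64 CPM per kb in Tbx3_del and 161 ± 22.9 in Tbx3_WT buds. The rRNAs are known to be the most abundant RNAs of mitochondria, and how the libraries selected RNA beyond the kit named is not given in the sources used here.

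Nuclear genes that serve the mitochondrial genome were described from 9 lists with 108 genes found in the files. In Tbx3_del buds 106 were tested, 1 rose and none fell, where 0.727% of all genes rose, and the median log2 fold change was -0.006. The gene that rose was Bnip3, a receptor that marks mitochondria for removal by autophagy and a known hypoxia target. It had 123, 211 and 221 CPM in Tbx3_del buds, against 55.2, 60.7 and 68.1 CPM in Tbx3_WT buds (log2 fold change 1.59 ± 0.21 SE, edgeR adjusted p = 0.0220). This call was lost on leaving out any 1 library other than Tbx3_del replicate 1 (adjusted p 0.0520 to 0.0990), and at 0.0605 with embryo sex in the model.

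Of the 18 genes of mitochondrial DNA transcription and replication, none was called in Tbx3_del buds by edgeR, DESeq2 or limma-voom, and 2 had an unadjusted edgeR p under 0.05. Their summed level was 526 to 545 CPM in Tbx3_del and 517 to 535 CPM in Tbx3_WT buds. Of 25 genes of mitochondrial RNA processing, none was called by these 3 tools either, and 2 had an unadjusted edgeR p under 0.05. Over all genes tested in the Tbx3 series, 14.3% had such an unadjusted p. Tfam, which packages the mitochondrial DNA and starts its transcription, averaged 101.2 CPM in Tbx3_del and 100.1 CPM in Tbx3_WT buds (log2 fold change 0.02). Polrmt, its RNA polymerase, averaged 44.7 CPM in Tbx3_del and 48.8 CPM in Tbx3_WT buds (-0.13, adjusted p = 0.369 by edgeR).

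In Hand2_del buds 108 list genes were tested, 13 fell and 1 rose, where 5.82% of all genes fell and 4.68% rose, and the median log2 fold change was -0.08. Genes of mitochondrial RNA processing that fell were Tbrg4 (61.7 CPM in Hand2_del and 74.9 CPM in Hand2_WT buds, log2 fold change -0.28), Fastkd5 (19.7 and 24.8 CPM, -0.33) and Trmt10c, a subunit of the enzyme that cuts tRNAs out of the precursor (32.3 and 39.9 CPM, -0.31). Of translation factors, the elongation factor Gfm1 (-0.23) and the release factor Mtrf1l (-0.38) fell. Of regulators of biogenesis, Pprc1, a coactivator (-0.33), and the transcription factors Nrf1 (-0.16) and Yy1 (-0.21) fell.

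Of the import and chaperone genes, Hspe1 had 268, 279 and 278 CPM in Hand2_del buds, against 364, 304 and 356 CPM in Hand2_WT buds (log2 fold change -0.31, edgeR adjusted p = 0.0423). The translocase genes Tomm40 (-0.25) and Timm23 (-0.26), the prohibitin Phb2 (-0.26) and the protease Lonp1 (-0.18) fell too. Pink1, the kinase that tags damaged mitochondria, rose to 31.7 CPM in Hand2_del, against 22.6 CPM in Hand2_WT buds (0.49, adjusted p = 0.0449). None of the 18 transcription and replication genes was called by edgeR or limma-voom, and 2 were by DESeq2, which called 21.9% of all genes with an adjusted p. An unadjusted edgeR p under 0.05 was found for 4 of the 18, where 32.4% of all genes tested had one. Tfam averaged 91.4 CPM in Hand2_del and 99.5 CPM in Hand2_WT buds (-0.12, adjusted p = 0.0675).

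In 40 of the 108 genes every Hand2_del library lay below every Hand2_WT library, as in 19.5% of all genes tested. The 14 calls had edgeR adjusted p-values from 0.0243 to 0.0484, and the number called was 20 without Hand2_WT replicate 2, 4 without Hand2_del replicate 2, 1 without Hand2_del replicate 1 and 0 without Hand2_WT replicate 1, Hand2_WT replicate 3 or Hand2_del replicate 3. It was 0 with embryo sex in the model and 27 by DESeq2, which called 21.9% of all genes with an adjusted p.

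**Figure D5:**
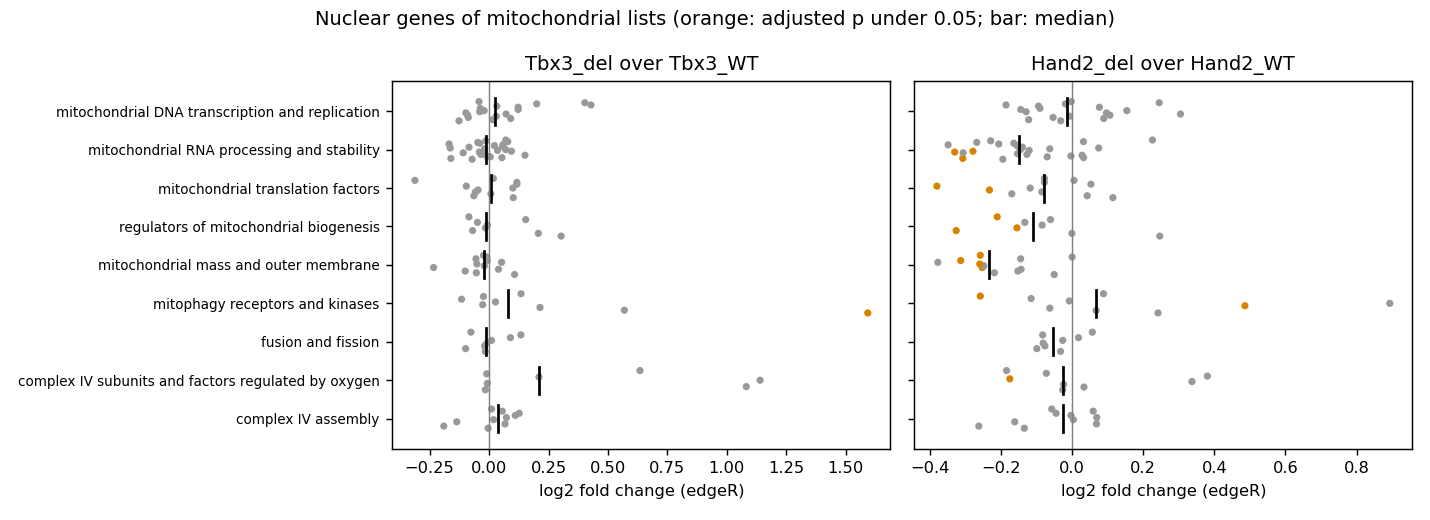
log2 fold change (x axes) of each tested member of 9 lists of nuclear genes for mitochondria (rows), Tbx3_del over Tbx3_WT at the left and Hand2_del over Hand2_WT at the right. Orange points were called and black bars are list medians: the single call in Tbx3_del is Bnip3 at 1.59, and 13 of 14 calls in Hand2_del lie below 0.

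Markers of other cells differed in level between groups, and their part in the results was not tested. Summed over 5 genes, primitive red cell markers ranged from 1770 to 3410 CPM in Tbx3_del and from 2460 to 4000 CPM in Tbx3_WT buds, and from 2830 to 3610 CPM in Hand2_del and 2090 to 3460 CPM in Hand2_WT buds. Macrophage markers, also 5, had 5.79 to 6.74 CPM in Tbx3_del and 1.20 to 3.91 CPM in Tbx3_WT buds, and 6.96 to 12.8 CPM in Hand2_del and 3.41 to 5.66 CPM in Hand2_WT buds. The 5 cardiac markers, of a tissue rich in mitochondria, summed to at most 5.92 CPM in any library. The 4 forelimb mesenchyme markers had 967 to 1130 CPM in Tbx3_del and 1160 to 1200 CPM in Tbx3_WT buds, and 1270 to 1540 CPM in Hand2_del and 1120 to 1280 CPM in Hand2_WT buds. The 5 muscle progenitor markers had 116 to 140 CPM in Tbx3_del and 122 to 135 CPM in Tbx3_WT buds, and 131 to 142 CPM in Hand2_del and 102 to 118 CPM in Hand2_WT buds. The 5 endothelial markers had 218 to 251 CPM in Tbx3_del and 220 to 247 CPM in Tbx3_WT buds, and 233 to 267 CPM in Hand2_del and 222 to 226 CPM in Hand2_WT buds. The 5 neuron markers had 25.9 to 45.2 CPM in Tbx3_del and 43.3 to 59.9 CPM in Tbx3_WT buds, and 65.1 to 82.6 CPM in Hand2_del and 56.9 to 66.4 CPM in Hand2_WT buds, and the 5 epithelial markers had 165 to 196 CPM across all 4 groups. In the Hand2 series the macrophage, muscle progenitor and endothelial sums did not overlap between the groups and were the higher ones in Hand2_del. Among single genes tested there, 18.7% were arranged in this way. In the Tbx3 series the macrophage sums were the higher ones and the mesenchyme sums the lower ones in Tbx3_del, with no overlap. Among single genes tested there, 10.7% had every Tbx3_del library above every Tbx3_WT library and 9.95% below. Tbx5 (mesenchyme) fell by edgeR in Tbx3_del, as did 0.284% of all genes. Of the other mesenchyme markers, Prrx1 (-0.35) and Twist1 (-0.05) had negative log2 fold changes in Tbx3_del and Msx1 (0.11) a positive one. None of these others was called by edgeR. By edgeR, C1qb (macrophage), Cdh5 (endothelial), Isl1 and Stmn2 (neuron) and Twist1 (mesenchyme) rose in Hand2_del buds, as did 4.68% of all genes. In the neuron, endothelial and mesenchyme lists, Tubb3 (-0.34), Tek (-0.05) and Tbx5 (-0.06) had negative log2 fold changes there and the other members positive ones. None of these markers was at 0 in all libraries.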

How the data were processed

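The authors deposited unscaled RSEM expected counts for each Ensembl gene of each library. Per the submitters' processing notes, FastQC 0.11.4, STAR 2.5.2, RSEM 1.3.0 and mm10 were used. Per the labels' protocols, total RNA with an integrity number of at least 8.0 went into a SMARTer kit and was read as 85 bp single-end reads. RSEM divides reads that match several genes between them, which bears on the mitochondrial genes with nuclear copies. Names come from GENCODE M21 (53274 of 53465 genes, 191 without).

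Counts were rounded and each mutant set against the wild type of its series in edgeR 4.0.16 (R 4.3.3): TMM, filterByExpr (minimum count 10, minimum total 15), quasi-likelihood F test, Benjamini-Hochberg adjustment over all genes, called under 0.05. The procedure was tested on simulated data. Errors of log2 fold changes are SE. CPM are TMM-scaled. In a second fit, chosen after seeing the data, each mt- gene was summed with annotated nuclear genes that share an 85-base word with it. The share over members has no p, since it is a value over the members. Replicate pairs had a chi-square per gene of 14.0 to 223, so replicate spread, not counting error, limits precision. Alternatives were DESeq2 1.42.0, RLE scaling, scaling without mt- genes, limma-voom 3.58.1, no filter, replicate number as a block, embryo sex, thinning and leaving out each library.

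Members and lists were chosen with earlier results of these data known. All coding and rRNA members, copies of at least 1 CPM and called list genes are named. Abundant list genes that were not called are given as counts, and Tfam, Polrmt and CT010467.1 were named after their values were seen.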

Additional observations from a re-analysis of the deposited data

Results flagged for a closer look

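The effect on mt-Nd3 was called different between both series by a test of the difference itself. The row's call was lost on leaving out most single libraries and with the replicate block. How the call of the sum depends on single libraries is not given here. As a row, the Hand2 effect minus the Tbx3 effect was 1.91 on the log2 scale (edgeR adjusted p = 0.0482): the row was higher in 3 of 3 Hand2_del libraries than in any Hand2_WT library, while the groups overlapped in the Tbx3 series. Summed with its chromosome 1 copy Gm28438, the difference was 0.573 (adjusted p = 0.0340). The sum was higher in every Hand2_del library than in every Hand2_WT library, and lower in every Tbx3_del library than in every Tbx3_WT library. Of all genes tested, 18.7% showed the first arrangement (fit of rows) and 9.96% the second (fit with copies).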

How the results depend on the processing

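Scaling by RLE or without mt- genes and limma-voom left 1 member called in each comparison, and 1 list gene in the Tbx3 comparison. Other settings moved counts. For Tbx3_del against Tbx3_WT, called members numbered 5 by DESeq2, 6 without the filter, 2 with the replicate block and 0 with embryo sex, and with copies summed 2 and 0 under the last 2 settings. List genes numbered 5, 5, 2 and 0 under the same 4 settings. All genes called numbered 153, against 551, 504, 87, 22 and, by limma-voom, 99. For Hand2_del against Hand2_WT, list genes called numbered 27 by DESeq2, 0 with the replicate block and 0 with embryo sex (14 as reported), and all genes 3451, 161 and 526 (1836 as reported). For the difference of effects, called members numbered 5 by DESeq2, 2 without the filter and 0 with the replicate block. Deviations of same-numbered libraries had correlations of 0.0726, 0.0169 and -0.0177 for Tbx3 and of -0.173, 0.0464 and 0.0937 for Hand2. Pairs of unlike number ran from -0.249 to 0.216. With 3 libraries per group these values cannot show whether same-numbered libraries shared a litter or a batch.

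With 1 library left out, called members numbered 0 to 2 in the Tbx3 comparison (0 to 3 with copies), 0 to 1 in the Hand2 comparison (0 to 1 with copies) and 0 to 1 for the difference. List genes numbered 0 to 5 and 0 to 20, all genes 23 to 220 and 218 to 2223. The share difference ran from -0.358 to -0.192 points for Tbx3 and from 0.0328 to 0.153 points for Hand2.

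Signs turned, as log2 fold changes, in the Tbx3 comparison for mt-Atp6 with embryo sex (0.584), and with 1 library left out for mt-Atp6 (-1.24 to 0.0797) and mt-Co3 (-0.938 to 0.346). In the Hand2 comparison they turned for mt-Nd4 with embryo sex (-0.0063) and, with copies, for mt-Atp6 (0.0171) and mt-Co3 (0.0726). With 1 library left out, the ranges there were -0.279 to 0.101 for mt-Co3, -0.0733 to 0.0737 for mt-Nd1, -0.0579 to 0.0967 for mt-Nd2, -0.0296 to 0.0925 for mt-Atp8, -0.0423 to 0.0798 for mt-Nd4 and -0.00914 to 0.168 for mt-Nd6. None of the genes whose sign turned was called under these settings, and the causes were not tested.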

Other observations

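Lars2, which codes for the mitochondrial leucyl-tRNA synthetase, was looked at after its values were seen. It took 0.504%, 0.0381% and 0.0299% of all counts in Hand2_del and 0.0545%, 0.0315% and 0.0223% in Hand2_WT buds. Per 100 counts of CT010467.1 it had 9.38, 8.48 and 9.14 in Hand2_del, 9.39, 8.52 and 8.94 in Hand2_WT, 8.91, 10.8 and 11.2 in Tbx3_del and 9.49, 10.2 and 9.35 in Tbx3_WT buds. The annotated transcripts of both genes share 0 words of 31 bases.

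Of 8 genes in the list of complex IV subunits and factors regulated by oxygen, 7 were tested in the Tbx3 comparison. edgeR and limma-voom called none, DESeq2 called 3, and 4 had an unadjusted edgeR p under 0.05. Over all genes, 14.3% had such an unadjusted p, and DESeq2 called 551 of 15120 genes with an adjusted p. Their median log2 fold change was 0.21. Higd1a, a complex IV factor, had 58.4, 76.0 and 83.1 CPM in Tbx3_del, against 44.1, 48.3 and 47.8 CPM in Tbx3_WT buds (edgeR adjusted p = 0.0650). Cox4i2, a complex IV subunit, had 5.49, 8.46 and 8.15 CPM in Tbx3_del, against 4.05, 3.73 and 2.69 CPM in Tbx3_WT buds (edgeR adjusted p = 0.0831). Ndufa4l2 and Lonp1 had log2 fold changes of 1.14 and 0.21 (edgeR adjusted p = 0.118 and 0.249). The subunits Cox4i1, Ndufa4 and Cox7a2 had log2 fold changes of -0.02, -0.008 and -0.01. The genes named were picked after their values were seen.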
